A study of Mus musculus with 24 samples.

Results

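The 9 genes described here encode the long filaments and crosslinkers of the skeletal muscle sarcomere, and they were taken by name: Ttn, Neb, Acta1, Actn2, Actn3, Mybpc1, Mybpc2, Myom1 and Myom2. They are 9 of the 55416 genes in the count table, each found by its Ensembl identifier, and all 9 passed the filter on low counts that kept 16408 genes. The study asked how physical inactivity alters muscle metabolism in male and female mice. RNA from the gastrocnemius (skeletal muscle in the labels) of 24 C57BL/6J mice, a strain that the labels spell C56BL6J, was sequenced. Mice were bought at 8 weeks of age and either stayed ambulatory (sham) or were housed for 8 weeks in a small mouse cage (SMC), a low acrylic box that restricts movement, with 6 mice in each of the 4 groups (sham and SMC mice of both sexes). All mice were wild type, were fasted for 4 hours and received ketamine and xylazine before the tissue was taken. In some of the study's experiments a sham and an SMC mouse were housed as a pair, and no label says whether that was so here, so no mice could be paired.

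The sarcomere is the contractile unit between neighbouring Z-discs. Titin, the product of Ttn, is a single giant protein that reaches from the Z-disc to the M-band and acts as a molecular spring and a ruler of the thick filament, while nebulin, the product of Neb, runs along the thin filament and sets its length. Acta1 encodes skeletal α-actin, the subunit of the thin filament. The α-actinins Actn2 and Actn3 crosslink actin at the Z-disc, Actn3 being restricted to fast fibres, whereas Mybpc1 and Mybpc2 encode the slow and fast forms of myosin binding protein C on the thick filament, and Myom1 and Myom2 encode myomesins that crosslink myosin in the M-band. In a bulk sample, fewer fibres of a type and less RNA per fibre cannot be told apart, and this holds for every value below.

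Libraries held 23026627 to 36880413 counts, and none of the 24 went against its labelled sex in Xist and Ddx3y. The defining genes of slow and fast fibres were detected in all groups. The summed level of 10 slow fibre genes was 86.4 CPM (counts scaled to a fixed library total) in male sham replicate 4 and 72.9 CPM in female sham replicate 7, against a median of 2148 CPM over all libraries, so both stood apart, and results that rest on them are given with and without them. Replicates of a group are separate mice. CPM carry TMM scaling factors throughout, and where levels of different genes are compared they were divided by the union of a gene's exons in kilobases (CPM per kb).

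The titin transcript alone took between 9.88% and 21.2% of all counts in a library and was the most counted gene of the series. In males its share was 9.88% to 19.5% in sham (14.4% ± 3.22, mean and SD, n = 6) and 17.9% to 20.2% in SMC mice (18.6% ± 0.816). In females it was 10.4% to 20.5% in sham (17.6% ± 3.63) and 18.6% to 21.2% in SMC mice (20% ± 0.852). In both sexes the SMC libraries lay close together and the sham libraries were widely spread, with the low values in male sham replicates 1, 2 and 3 and in female sham replicate 8. Neb took 1.83% to 3.09% of counts and Acta1 took 1.81% to 2.36%, which ranked them 4 and 6 among all genes by mean count. The 9 genes together held 15.2% to 25.6% of counts in sham males and 23.8% to 26.6% in SMC males, and 15.9% to 27.6% in sham females and 24.5% to 28.3% in SMC females. The mean share was higher in SMC than in sham mice by 4.19 percentage points in males and 2.94 in females, and lower in sham males than in sham females by 3.11 points (a difference of -3.11). Leaving out 1 library moved these differences to between 3.12 and 5.20 in males and between 1.397 (female sham replicate 8 left out) and 3.73 (female sham replicate 7 left out) in females. The difference between sham males and sham females lay between -4.65 (female sham replicate 8 left out) and -2.04 (male sham replicate 1 left out). Titin made up 65% to 76.7% of the sum, whereas the SD of the Acta1 share was 0.132 percentage points in male sham and 0.165 in female sham mice. Genes of the mitochondrial genome took 4.11% to 10.2% of counts, and with them left out of the total the titin share was 15.6% ± 3.43 in sham males and 20.3% ± 0.799 in SMC males.

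**Figure D1:**
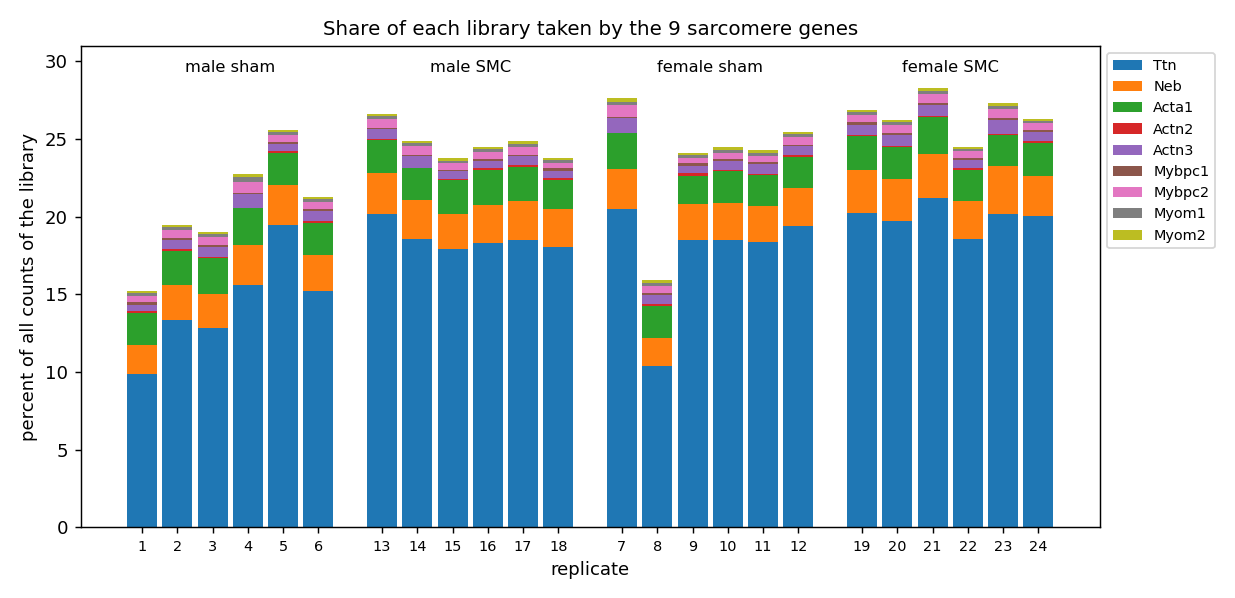
Stacked bars give the percent of all counts of a library that fell on each of the 9 genes, with 1 bar per mouse, ordered by group and replicate number. The blue titin segment makes most of each bar, and the lowest totals are 15.2% in male sham replicate 1 and 15.9% in female sham replicate 8.

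Per length, the order was different. Acta1 ranked 1 among all genes, at 13870 ± 1773 CPM per kb (mean and SD over 24 libraries), and was 6.41 times as high as the next member. Actn3 followed at 2163 ± 659 CPM per kb, then Ttn at 1538 ± 367, Mybpc2 at 1393 ± 401 and Neb at 934 ± 173. The remaining members were lower, with Mybpc1 at 257 ± 79.8, Actn2 at 251 ± 93.3, Myom1 at 179 ± 31.7 and Myom2 at 175 ± 36.6 CPM per kb. Acta1, Mybpc2 and Neb were above the next member in 24 of 24 libraries. The other neighbours differed by less than the SD over libraries, with Actn3 above Ttn in 22 of 24, Ttn above Mybpc2 in 18, Mybpc1 above Actn2 in 12, Actn2 above Myom1 in 20 and Myom1 above Myom2 in 17 of 24. The first 5 places were the same when the longest protein-coding transcript was used as the length (chosen after seeing the data), while Myom1 then stood at 332 CPM per kb, above Actn2 at 316, Myom2 at 305 and Mybpc1 at 297. Titin thus had about as many counts per kilobase of its 116.83 kb of exon as Mybpc2 had over 3.61 kb.

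**Figure D2:**
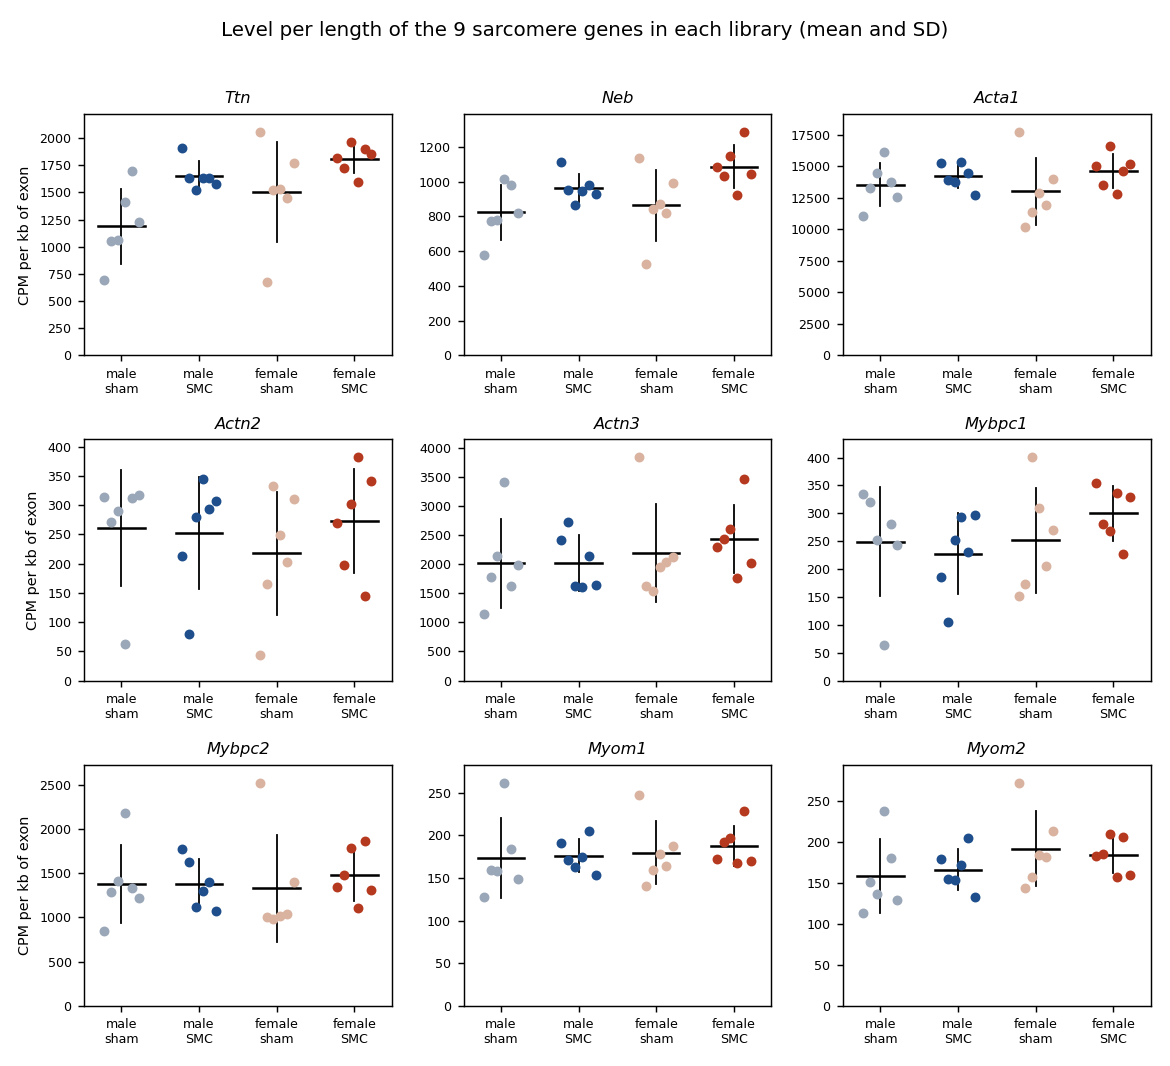
Each panel plots the level of 1 gene in CPM per kb of exon, with 1 point per mouse, a line for the mean and a bar for the SD of the group. Titin in SMC mice lies between 1522 and 1961, and Actn2 is lowest in female sham replicate 7 at 44.5, male sham replicate 4 at 62.1 and male SMC replicate 14 at 79.1.

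The first comparison asked whether the scaffold genes differed between SMC and sham mice in each sex. With the quasi-likelihood test of edgeR, 0 of the 9 members passed a false discovery rate (FDR) of 0.05 in males, where 0% of all 16408 genes did, and 0 of 9 passed in females, where 0.341% of genes did. At an unadjusted p under 0.05, 1 member passed in males (Ttn, beside 11% of all genes) and 1 in females (Neb, beside 12.5% of all genes). DESeq2 called 0 members in both sexes. At an unadjusted p under 0.05 it had the same 1 member in each, beside 1863 of all genes in males and 2066 in females. Limma with quality weights called 0 in both and had 2 members in each at that p, beside 2768 of all genes in males and 1954 in females. Log2 fold changes of the 9 members were above 0 for 7 in males (median 0.02) and for 8 in females (median 0.17), while the medians over all tested genes were -0.0044 and -0.011. No member had SMC and sham libraries that did not overlap in CPM, in either sex. Over all genes, 0.591% lay wholly higher and 0.311% wholly lower in SMC males, and 0.396% and 0.634% did so in SMC females.

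Titin showed the largest point estimate among the members in males. Its level in male sham mice ran from 697 to 1701 CPM per kb with a median of 1141, and in male SMC mice from 1522 to 1911 with a median of 1631. All male SMC libraries were above 5 of the 6 male sham libraries, and only sham replicate 5, at 1701, lay within the SMC range. The log2 fold change was 0.47 (SE 0.22, 95% interval 0.02 to 0.93; edgeR unadjusted p = 0.0422, FDR = 0.43). Over the alternatives the FDR lay between 0.0865 and 0.666, and the estimate was 0.36 with male sham replicate 1 left out and 0.60 with male sham replicate 5 left out, the ends of the range over single libraries. In females, titin ran from 675 to 2055 CPM per kb (median 1530) in sham and from 1593 to 1961 (median 1837) in SMC mice. These groups overlapped, with female sham replicate 7 the highest and replicate 8 the lowest of all 24 libraries. The log2 fold change in females was 0.27 (SE 0.22, 95% interval -0.19 to 0.72; edgeR FDR = 0.68), and it was 0.12 without female sham replicate 8.

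Nebulin, which shares the giant length of titin on a smaller scale with 26.58 kb of exon, ran from 576 to 1015 CPM per kb (median 800) in male sham and from 863 to 1110 (median 949) in male SMC mice. The 2 groups overlapped, and the log2 fold change was 0.23 (SE 0.16, 95% interval -0.10 to 0.55; edgeR FDR = 0.66), or 0.14 without male sham replicate 1. In females it ran from 523 to 1135 CPM per kb (median 858) in sham and from 921 to 1284 (median 1063) in SMC mice. Again the ranges overlapped, female sham replicate 8 being the lowest library and female SMC replicate 23 the highest. The log2 fold change in females was 0.33 (SE 0.16, 95% interval 0.0017 to 0.66; edgeR unadjusted p = 0.049, FDR = 0.40), and it was 0.22 without female sham replicate 8.

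Both giant transcripts were also set beside other long genes. Over 88 non-member genes with at least 20 kb of exon and a mean over 10 CPM, the median log2 CPM relative to each gene's mean ran from -0.12 to 0.05 in male sham and from -0.04 to 0.06 in male SMC libraries, and from -0.12 to 0.08 in female sham and -0.01 to 0.07 in female SMC libraries. The low ends belonged to male sham replicate 1 and female sham replicate 8, which were also lowest in titin. Titin relative to its own mean spanned -1.14 to 0.47. That is the range of 1 gene, and its width cannot be set against that of a median over 88 genes. Across the 24 libraries, groups included and with shared scaling, its level correlated with the long-gene median at r = 0.87 and nebulin's at r = 0.82. The same measure over 613 genes with at most 2 kb of exon ran from -0.065 to 0.207 (median 0.069) in male sham libraries. It ran from -0.077 to 0.036 (median -0.014) in male SMC, -0.124 to 0.049 in female sham and -0.058 to 0.006 in female SMC libraries. Male sham replicates 1, 2 and 3 were at 0.09, 0.08 and 0.21. Titin correlated with the short-gene median at r = -0.41 and nebulin at r = -0.24. With each library's length trend removed (chosen after seeing the data), the log2 fold change of titin in males was 0.40 (edgeR unadjusted p = 0.0555, FDR = 0.48) and that of nebulin in females was 0.33 (edgeR unadjusted p = 0.0384, FDR = 0.36), so titin in males no longer passed an unadjusted p of 0.05. The trend was fitted without the members, and a length beyond its longest gene took its end value. An effect of length particular to giant transcripts could therefore remain in these values. The part of transcript length in these differences was not tested further. The fast fibre genes moved with both as well. Their summed level of 10 genes ran from 64050 to 129700 CPM in male sham and from 90870 to 123400 CPM in male SMC libraries, and from 71700 to 151600 CPM in female sham and 86200 to 127800 CPM in female SMC libraries. After group means were taken out, the mean log2 level of the list correlated over 24 libraries with titin at r = 0.72 and with nebulin at r = 0.83, or 0.66 and 0.78 without the pair of libraries low in slow fibre genes. Red blood cell genes ran the other way, with r = -0.69 for titin and -0.59 for nebulin (-0.68 and -0.59 without that pair). The summed level of their 6 genes ran from 175.7 to 1585 CPM in male sham and from 267.6 to 1218 CPM in male SMC libraries, and from 75.1 to 1852 CPM in female sham and 256.5 to 946.8 CPM in female SMC libraries. The highest sums of the sham groups were in male sham replicate 1 and female sham replicate 8, the libraries lowest in titin in their groups. Macrophage genes correlated with titin at -0.52 and with nebulin at -0.53, or -0.39 and -0.35 without that pair, and their 7 genes summed to 45.4 to 90.7 CPM in male sham, 46.8 to 70.5 in male SMC, 27.8 to 115.6 in female sham and 50.3 to 68.2 CPM in female SMC libraries. Of the 5 fibroblast genes, the summed level ran from 509.9 to 1761 CPM (median 1263) in female sham and from 595 to 925 CPM (median 805) in female SMC mice, and from 751.5 to 1371 CPM (median 991) in male sham and 833 to 1345 CPM (median 1038) in male SMC mice. The collagen genes Col1a2 and Col1a1 of that list had log2 fold changes of -0.91 (edgeR unadjusted p = 0.00392, FDR = 0.15) and -0.88 (edgeR unadjusted p = 0.0195, FDR = 0.28) in females. The rest of the list, Col3a1, Pdgfra and Dcn, is not given here gene by gene. As a whole the list correlated with titin at -0.37 and with nebulin at -0.44, or -0.13 and -0.16 without that pair. The 6 tendon cell genes summed to 203.6 to 811.5 CPM (median 409.6) in female sham and 130.1 to 402 CPM (median 287) in female SMC mice. In males they summed to 171.7 to 307.4 CPM (median 298.2) in sham and 152.7 to 322.4 CPM (median 254.7) in SMC mice. This list correlated with titin at -0.02 and with nebulin at -0.04, or 0.18 and 0.20 without that pair. In each of these lists 0 genes were at 0 counts in a whole group. The part of fast fibre content and of these other cell types in the differences was not tested.

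Averaged over the sexes, so that 12 SMC mice were set against 12 sham mice, all 9 members had a fold change above 0 and 2 of them, Ttn and Neb, had an unadjusted p under 0.05, beside 17.5% of all genes. Of the 16408 genes, 2.36% passed the FDR threshold and 0 members did. Titin was higher in SMC by 0.37 on the log2 scale (SE 0.16; edgeR unadjusted p = 0.0256, FDR = 0.21) and nebulin by 0.28 (SE 0.11; edgeR unadjusted p = 0.0207, FDR = 0.19). Limma with quality weights, which gives less weight to noisier libraries, called titin at 0.41 (FDR = 0.0484), as 1 of 541 genes called. The FDR of titin lay between 0.0484 and 0.36 over the alternatives, and that of nebulin between 0.0545 and 0.338. Without the pair of libraries low in slow fibre genes, 6 members (with Acta1, Actn3, Mybpc2 and Myom1) had an unadjusted p under 0.05. At that p there were then 3344 genes in all, against 2879 with every library kept. The lowest edgeR FDR of a member was 0.0661. Both libraries of the pair are sham, and female sham replicate 7 was the highest sham female in all 6 of these members. Leaving it out lowers their sham mean, so this count follows in part from the choice of libraries. The response to SMC did not pass the test of a difference between the sexes for any member (0 of 9, beside 0% of all genes by FDR and 5.13% at an unadjusted p under 0.05, where 0 members passed). For titin the male response exceeded the female response by 0.21 (95% interval -0.44 to 0.85), a value that was 0.084 without female sham replicate 7 and 0.36 without female sham replicate 8.

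**Figure D3:**
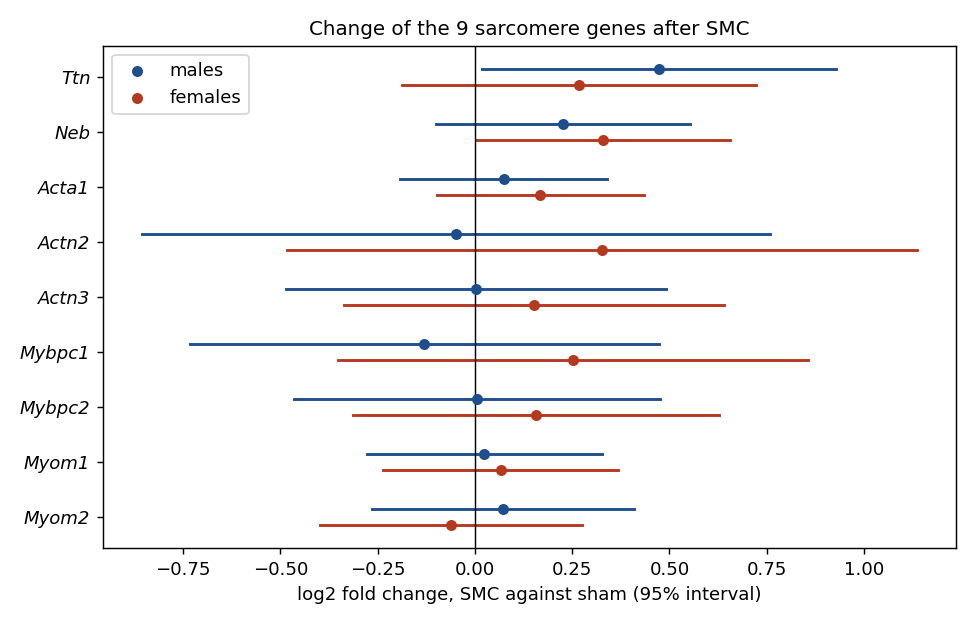
Points give the log2 fold change of SMC against sham for each gene in males (blue) and females (red), with horizontal bars for the 95% interval from the edgeR fit. The interval excludes 0 for Ttn in males (0.02 to 0.93) and for Neb in females (0.0017 to 0.66), before adjustment over all genes.

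Acta1 was the steadiest member. In males it ran from 11090 to 16160 CPM per kb (median 13510) in sham and from 12770 to 15350 (median 14200) in SMC mice. In females it ran from 10230 to 17720 (median 12430) in sham and from 12800 to 16600 (median 14840) in SMC mice. The SMC range lay within the sham range in both sexes. Log2 fold changes were 0.07 in males (SE 0.13, 95% interval -0.19 to 0.34; edgeR FDR = 0.89) and 0.17 in females (SE 0.13, 95% interval -0.10 to 0.43; edgeR FDR = 0.65). Within groups the SD of log2 CPM was 0.185 for Acta1, below the 0.193 of the median gene among 1030 genes over 100 CPM, and 0.364 for Ttn and 0.260 for Neb. Actin genes are close copies of each other, so a part of the Acta1 reads could have been assigned to or from other actins.

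The α-actinins and the myosin binding proteins C were the members that varied most between mice. Actn2, the α-actinin that is richest in oxidative fibres, ran from 62.1 to 318 CPM per kb (median 301) in male sham and from 79.1 to 345 (median 286) in male SMC mice. In females it ran from 44.5 to 333 (median 226) in sham and from 144 to 382 (median 286) in SMC mice. In sham males, SMC males and sham females 1 library lay far below the rest, and the groups overlapped over nearly their full range. The within-group SD of log2 CPM was 0.853, larger than for 98.1% of the genes over 100 CPM. Fold changes were -0.05 in males (SE 0.39) and 0.33 in females (SE 0.39), with 95% intervals of -0.86 to 0.76 and -0.48 to 1.14 (edgeR FDR = 0.98 and 0.80). Mybpc1, the slow form of myosin binding protein C, ran from 64.3 to 335 CPM per kb (median 266) in sham males and 105 to 297 (median 242) in SMC males, and from 152 to 400.3 (median 238) in sham females and 228 to 355 (median 305) in SMC females. In all 4 groups the library lowest in Mybpc1 was also the lowest in Actn2. Its log2 fold changes were -0.13 (SE 0.29) in males and 0.25 (SE 0.29) in females (edgeR FDR = 0.92 and 0.80).

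Actn3, the fast fibre α-actinin, took the opposite course between mice. It ran from 1149 to 3417 CPM per kb (median 1883) in sham males and 1607 to 2722 (median 1885) in SMC males, and from 1545 to 3835 (median 1993) in sham females and 1757 to 3455 (median 2360) in SMC females. In all 4 groups the library highest in Actn3 was the lowest in Actn2, and SMC and sham mice overlapped. Mybpc2, the fast form of myosin binding protein C, ran from 846 to 2182 CPM per kb (median 1307) in sham males and 1076 to 1773 (median 1355) in SMC males, and from 977 to 2527 (median 1033) in sham females and 1106 to 1864 (median 1411) in SMC females. Its top values were in female sham replicate 7 and male sham replicate 4. Log2 fold changes were 0.0037 (SE 0.24) in males and 0.15 (SE 0.24) in females for Actn3, and 0.0054 (SE 0.23) and 0.16 (SE 0.23) for Mybpc2 (edgeR FDR of 0.84 or more). Without male sham replicate 4 and female sham replicate 7, Actn3 and Mybpc2 were among 4 members with an unadjusted p under 0.05 in females, with Neb and Acta1. At that p there were then 2695 genes in all, against 2049 with every library kept. The lowest edgeR FDR of a member was 0.157. Female sham replicate 7 was the highest sham female in all 4 of these members. Leaving it out lowers their sham mean, so this count follows in part from the choice of libraries.

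Slow fibre genes moved with these 4 members. The summed level of the 10 slow fibre genes ran from 86.4 to 2338 CPM in sham males and 692.5 to 3170 in SMC males, and from 72.9 to 3123 in sham females and 1491 to 4459 in SMC females. Over 24 libraries and after taking out group means, the mean log2 level of the list correlated with Actn2 at r = 0.94, with Mybpc1 at 0.82, with Actn3 at -0.85 and with Mybpc2 at -0.85. Without the pair of libraries low in slow fibre genes these values were 0.88, 0.82, -0.74 and -0.58. Endothelial cell genes moved with the same members, at r = 0.93 for Actn2, 0.73 for Mybpc1, -0.74 for Actn3 and -0.67 for Mybpc2, and at 0.88, 0.69, -0.49 and -0.26 without that pair. The summed level of these 5 genes ran from 226.5 to 309 CPM in sham males and 232 to 367 CPM in SMC males, and from 168 to 315 CPM in sham females and 234.7 to 326 CPM in SMC females. Of the 10 slow fibre and 5 endothelial cell genes, 0 were at 0 counts in a whole group. The part of slow fibre and endothelial cell content in the values of these members was not tested.

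The upstream regions of Actn2, Mybpc1 and Mybpc2 are shown because these genes moved together or in opposite directions between mice. Entries for 6 of the 9 members (Ttn, Acta1, Actn2, Mybpc1, Mybpc2 and Myom1) were matched by symbol, and Neb, Actn3 and Myom2 had none. The 250 bases before the annotated start are from RefSeq on GRCm38.p6, which is not the GRCm39 build named in the submitters' processing notes, and are written 5′ to 3′ on the gene's strand with E-boxes (CANNTG, the site of basic helix-loop-helix factors such as MyoD, the same on both strands) in capitals.
Actn2 upstream region, chr13:12340733-12340982, minus strand: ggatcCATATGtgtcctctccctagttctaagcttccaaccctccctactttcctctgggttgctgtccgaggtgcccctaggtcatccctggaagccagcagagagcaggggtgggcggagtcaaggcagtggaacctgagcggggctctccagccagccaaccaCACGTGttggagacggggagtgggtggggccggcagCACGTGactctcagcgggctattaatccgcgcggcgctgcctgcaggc
Mybpc1 upstream region, chr10:88605153-88605402, minus strand: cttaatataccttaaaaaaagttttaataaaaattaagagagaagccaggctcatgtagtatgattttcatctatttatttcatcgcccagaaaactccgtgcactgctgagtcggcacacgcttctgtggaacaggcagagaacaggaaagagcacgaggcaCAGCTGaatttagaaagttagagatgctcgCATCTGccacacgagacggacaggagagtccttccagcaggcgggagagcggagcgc
Mybpc2 upstream region, chr7:44524670-44524919, minus strand: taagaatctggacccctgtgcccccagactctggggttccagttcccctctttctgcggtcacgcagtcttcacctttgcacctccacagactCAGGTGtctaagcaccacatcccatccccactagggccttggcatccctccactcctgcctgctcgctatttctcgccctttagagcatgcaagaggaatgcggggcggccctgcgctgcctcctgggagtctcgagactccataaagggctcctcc
Actn2 held 3 E-boxes, of which CACGTG occurred as a pair within its last 84 bases, Mybpc1 held 2 and Mybpc2 held 1. An E-box occurred in 66.2% of all 32851 windows of this length, so these matches are common. A TATA box (TATAAA), a CArG box and a MEF2 site, searched on both strands, were in none of the 3 windows, while 12.4%, 1.47% and 2.92% of all windows held them. Among the other matched members, a CArG box was found in Acta1 and in Myom1 and a MEF2 site in Ttn. A match describes letters only.

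The myomesins differed little between SMC and sham mice. Myom1 ran from 128 to 262 CPM per kb (median 159) in sham males and 154 to 205 (median 173) in SMC males, and from 141 to 247 (median 171) in sham females and 167 to 228 (median 182) in SMC females. Myom2 ran from 113 to 237 CPM per kb (median 143) in sham males and 132 to 205 (median 163) in SMC males, and from 144 to 272 (median 183) in sham females and 158 to 209.9 (median 185) in SMC females. All ranges overlapped, and log2 fold changes were 0.02 (SE 0.15) and 0.07 (SE 0.15) for Myom1 and 0.07 (SE 0.16) and -0.06 (SE 0.16) for Myom2 in males and females (edgeR FDR between 0.90 and 0.97). The 95% intervals bounded a change of Myom1 to between -0.28 and 0.33 in males and between -0.24 and 0.37 in females.

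The second comparison set sham males against sham females, to show how the scaffold differs between the sexes without SMC. By FDR 0 of 9 members passed, beside 1.97% of all genes, and at an unadjusted p under 0.05 again 0 passed, beside 15.5% of all genes. DESeq2 also had 0 by either threshold, beside 2585 of all genes at the unadjusted p. Limma with quality weights had 0 by FDR and 2, Ttn and Myom2, at an unadjusted p under 0.05, beside 2675 of all genes. Titin was lower in males by 0.34 on the log2 scale, with a fold change of -0.34 (SE 0.22; edgeR FDR = 0.49), and Myom2 had -0.28 (SE 0.16; edgeR FDR = 0.42). Titin was at -0.22 without male sham replicate 1 and Myom2 at -0.15 without female sham replicate 7. The sham libraries of the sexes overlapped for all 9 members.

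Ratios of 2 members within a library need no scaling between libraries, and 6 of them were compared over mice by a two-sided exact permutation test with Benjamini-Hochberg adjustment over the 6 ratios. The smallest p that 6 against 6 mice allow is 0.00216. The ratio of Myom2 to Myom1 counts ran from 0.730 to 0.833 in male sham and from 0.835 to 0.959 in female sham mice. The sexes did not overlap, and the difference of -0.23 in the log2 ratio gave the smallest possible p of 0.00216 (exact permutation test, adjusted p = 0.013). The adjusted p was between 0.013 and 0.0476 over all alternatives run. In SMC mice the ratio ran from 0.729 to 0.844 in males and from 0.763 to 0.901 in females. These overlapped, and the log2 difference was -0.06 (exact permutation p = 0.266, adjusted p = 0.532; this comparison was chosen after seeing the data). Between SMC and sham mice the log2 ratio differed by -0.119 in females (exact permutation p = 0.0476, adjusted p = 0.24). In males it differed by 0.047 (exact permutation p = 0.301, adjusted p = 0.451). The SMC response of this ratio differed between the sexes by 0.17 (permutation p = 0.0248, adjusted p = 0.084), with an adjusted p of 0.0302 without male sham replicate 5 and 0.0491 without female sham replicate 8. Over all alternatives the adjusted p of this difference lay between 0.0302 and 0.178. The gene span of Myl12a overlaps that of Myom1 on the opposite strand, and Myl12a held 3.47% as many counts as Myom1. Overlap of their exons was not examined. Whether strand was used in counting is not given in the sources used here, so reads of the 2 genes may not be told apart where exons overlap.

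Titin counts exceeded nebulin counts by 5.32 to 7.65 times in male sham mice (median 6.04) and by 7.31 to 7.75 times in male SMC mice (median 7.56). The SMC mice lay close together above 5 of the 6 sham mice, and sham replicate 5 lay within their range. The log2 ratio was higher in SMC males by 0.28 (exact permutation p = 0.013, adjusted p = 0.0519), and without male sham replicate 5 the adjusted p was 0.00649. Leaving out the only overlapping sham library separates the groups, so that value was fixed by the choice of library. The adjusted p of this ratio lay between 0.00649 and 0.0909 over all alternatives. In females the ratio was 5.67 to 7.96 in sham (median 7.83) and 6.52 to 7.83 in SMC mice (median 7.44). The low female values belonged to sham replicate 8 and SMC replicate 23 alone, and the log2 difference was -0.02 (exact permutation p = 0.866, adjusted p = 0.87). The male and female responses differed by 0.29 (permutation p = 0.028, adjusted p = 0.084), with an adjusted p of 0.00216 without female sham replicate 8 and 0.0302 without male sham replicate 5. Over all alternatives the adjusted p of this difference lay between 0.00216 and 0.178. Female sham replicate 8 and male sham replicate 5 each lay apart from the rest of their sham group, toward the sham mice of the other sex. The small values without either of them follow in part from the choice of library.

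Relative to actin, titin counts were 4.78 to 9.42 times Acta1 counts in male sham and 8.07 to 9.51 times in male SMC mice. The log2 ratio was higher in SMC males by 0.44 (exact permutation p = 0.0173, adjusted p = 0.0519). Male sham replicate 5 was again the library inside the SMC range, and without it the groups were separate and the adjusted p was 0.00649. Over all alternatives the adjusted p of this ratio lay between 0.00649 and 0.0974. In females the ratio was 5.02 to 10.2 in sham and 8.99 to 9.90 in SMC mice, and the log2 difference was 0.16 (exact permutation p = 0.455, adjusted p = 0.87), or 0.0057 without female sham replicate 8. Neb over Acta1 differed by 0.17 in males (exact permutation p = 0.0736, adjusted p = 0.147) and by 0.17 in females (exact permutation p = 0.0801, adjusted p = 0.24).

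The fast to slow ratios had the widest range of all. Actn3 counts were 2.80 to 42.1 times Actn2 counts in sham males and 3.56 to 26.3 times in SMC males, and 3.55 to 65.8 times in sham females and 3.52 to 18.3 times in SMC females. Mybpc2 counts were 2.02 to 27.1 times Mybpc1 counts in sham males and 2.89 to 12.3 times in SMC males, and 1.95 to 13.3 times in sham females and 2.63 to 6.53 times in SMC females. The highest values were in male sham replicate 4, female sham replicate 7 and male SMC replicate 14 for both ratios, and neither differed between SMC and sham mice beyond the spread between mice (exact permutation p of 0.903 and 0.911 in males, 0.727 and 0.87 in females).

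**Figure D4:**
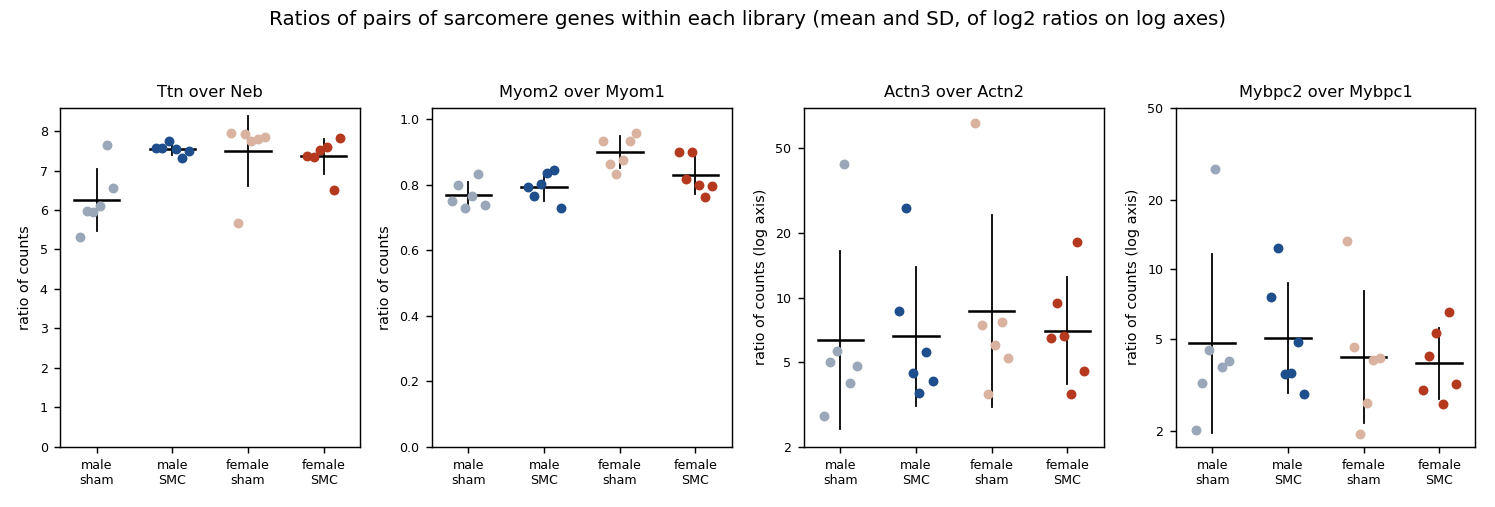
Panels give the ratio of counts of 2 genes in each mouse, on a linear axis for Ttn over Neb and Myom2 over Myom1 and on a log axis for Actn3 over Actn2 and Mybpc2 over Mybpc1, with lines for the mean and bars for the SD (of the log2 ratios on the log axes). Female sham mice lie above all male sham mice in Myom2 over Myom1 (0.835 to 0.959 against 0.730 to 0.833), and 5 male sham mice lie below all male SMC mice in Ttn over Neb.

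Mouse-to-mouse covariation split the members. After group means were taken out, Ttn and Neb correlated at r = 0.96 over 24 libraries, Myom1 and Myom2 at 0.96, Actn3 and Mybpc2 at 0.94 and Actn2 and Mybpc1 at 0.88. Actn2 ran against Actn3 at r = -0.83 and Mybpc1 against Mybpc2 at -0.70. Without the 2 libraries low in slow fibre genes these were 0.95, 0.93, 0.88, 0.86, -0.62 and -0.53. Actn2 against Mybpc2 moved further, from -0.77 to -0.42, as did Actn2 against Myom1 (-0.66 to -0.14) and against Myom2 (-0.57 to -0.02). Titin was nearly unrelated to Actn2 (-0.22, and 0.17 without the same libraries). Levels of all members in a library share 1 scaling factor, so the values are descriptions.

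**Figure D5:**
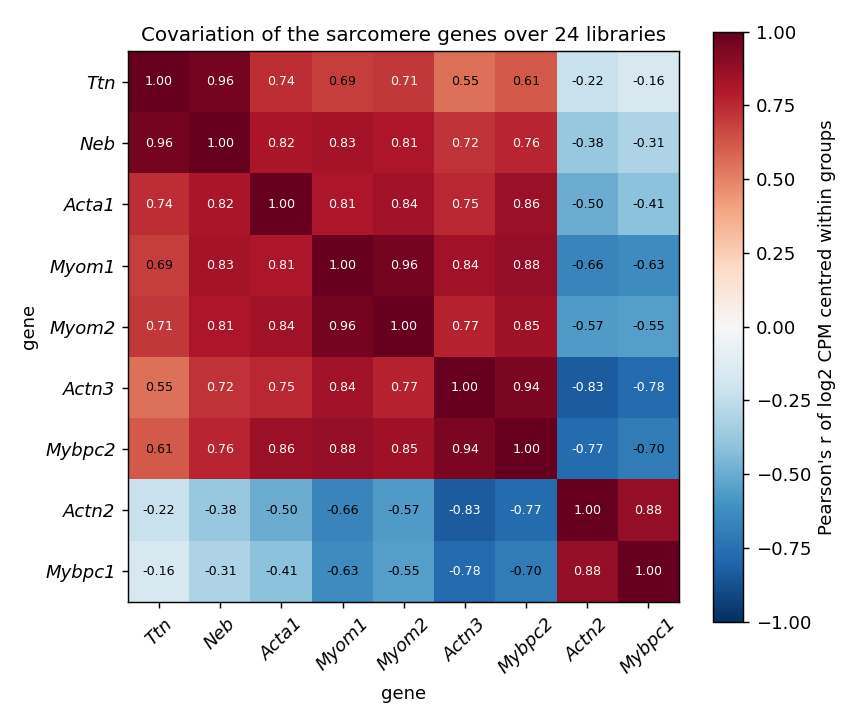
Each cell gives Pearson's r between the log2 CPM of 2 genes over 24 libraries after the mean of each group was taken out. The Ttn and Neb cell is 0.96, and Actn2 and Mybpc1 form a block (0.88) with negative values to Actn3 (-0.83 and -0.78) and Mybpc2 (-0.77 and -0.70), of which Actn2 with Mybpc2 is -0.42 without the 2 libraries low in slow fibre genes.

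Among all tested genes, those most like titin over the 24 libraries included Huwe1 (r = 0.90), a large ubiquitin ligase, and Zfp106 (0.89). Those most like nebulin were Ryr1 (0.92), the calcium release channel of the sarcoplasmic reticulum, Huwe1 (0.91) and Tln2 (0.91), a talin. Acta1 was nearest to Sh3bgr (0.89), Dcaf6 (0.89) and Mylf-ps (0.88). Actn2 was nearest to Idh2 (0.99), the mitochondrial NADP-dependent isocitrate dehydrogenase, Bdh1 (0.98), which oxidises the ketone body β-hydroxybutyrate, and Esrrb (0.97), an orphan nuclear receptor. Mybpc1 was nearest to Atp5f1 (0.95), a subunit of ATP synthase, Clip4 (0.95) and 2310016D03Rik (0.95). Actn3 was nearest to Anapc5 (0.97), Pygm (0.97), the muscle glycogen phosphorylase, and Myoz1 (0.95), a Z-disc protein of fast fibres, and Mybpc2 to Pygm (0.98), Myh4 (0.97), the fastest myosin heavy chain, and Ckm (0.97), muscle creatine kinase. Myom1 was nearest to Dcaf6 (0.94), Mypn (0.94), which encodes the Z-disc protein myopalladin, and Cux1 (0.92), and Myom2 to Dcaf6 (0.91) and Gapdh (0.90), a glycolytic enzyme. Without the 2 libraries low in slow fibre genes these correlations lay between 0.82 (Acta1 with Mylf-ps) and 0.98 (Actn2 with Idh2), and those of the myomesins were 0.87 for Myom1 with Dcaf6, 0.84 with Mypn and with Cux1, and 0.83 for Myom2 with Dcaf6 and with Gapdh.

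Genes that work with the members were read from 4 lists of 48 genes, of which 47 were tested. In males 0 of 47 passed an FDR of 0.05, with 3 higher and 8 lower at an unadjusted p under 0.05 beside 5.41% and 5.59% of all genes. In females 0 of 47 passed the FDR, with 5 higher and 2 lower at that p beside 5.02% and 7.47%. The responses of the sexes differed for 0 of 47 by FDR, with 0 higher and 1 lower at that p beside 3% and 2.13%. Averaged over the sexes, 2 of 47 passed the FDR, 1 in each direction, beside 1.03% and 1.33% of all genes, and 8 higher and 5 lower passed at the unadjusted p beside 7.9% and 9.65%. Between sham males and sham females 2 of 47 passed the FDR, both lower in males, beside 1.14% of all genes, and 5 higher and 3 lower passed at the unadjusted p beside 6.23% and 9.23%.

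Of the Z-disc list of 16 genes, Pdlim5 and Synpo2 were the genes called after averaging over the sexes. Pdlim5, a PDZ-LIM adaptor bound to α-actinin, ran from 317 to 459 CPM in male sham and from 243 to 289 in male SMC mice, which did not overlap (as in 0.311% of all genes in this direction), and from 265 to 355 in female sham and 242 to 301 in female SMC mice, which did. Averaged over the sexes it fell by 0.32 on the log2 scale (SE 0.07; edgeR FDR = 0.0134), with values of -0.44 in males (edgeR FDR = 0.093) and -0.20 in females (edgeR FDR = 0.38). Synpo2, an actin-bundling protein of the Z-disc, ran from 605 to 763 CPM in sham males and 719 to 913 in SMC males, and from 461 to 788 in sham females and 772 to 978 in SMC females. These overlapped in both sexes, and averaged over the sexes it rose by 0.32 (SE 0.07; edgeR FDR = 0.0248). Leaving out male SMC replicate 18, female SMC replicate 19 or female SMC replicate 23 took the FDR of Synpo2 to 0.0517, 0.0512 and 0.0515. Csrp3, the muscle LIM protein, had the lowest value of the list in both sexes (-1.12, SE 0.63, in males and -0.77, SE 0.63, in females) without passing the test, and its sham libraries ran from 6.62 to 151 CPM in males and from 0.877 to 96.5 CPM in females. Xirp2, which binds actin at the Z-disc and the myotendinous junction, had the highest value in females (0.39, SE 0.15; edgeR FDR = 0.27).

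Of the M-band and thick filament list, 10 of 11 genes were tested, and Obsl1 and Mybph differed between sham males and sham females. Obsl1, a cytoskeletal linker, ran from 39.1 to 65.6 CPM in male sham and from 68.5 to 88.8 in female sham mice. The sexes did not overlap, as in 0.524% of all genes in this direction and 0.609% in the other, and the log2 difference was -0.61 (SE 0.13; edgeR FDR = 0.0112). Mybph, a relative of myosin binding protein C, ran from 53.4 to 184 CPM in male sham and from 155 to 337 in female sham mice, which overlapped, with a log2 difference of -1.37 (SE 0.32; edgeR FDR = 0.0243). Its FDR rose to between 0.0503 and 0.0627 without male sham replicate 1, 2 or 3 or female sham replicate 8, and was 0.0629 without the pair of libraries low in slow fibre genes. Between SMC and sham males, Mybph had the lowest value of the list (-0.80, SE 0.32; edgeR FDR = 0.34), and in females Cmya5 was at 0.19 and Trim54 at -0.10.

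Of the 6 genes that bind titin or sense its stretch, 0 passed the FDR in any comparison. Ankrd1, a stretch-responsive ankyrin repeat protein of the titin spring region, ran from 3.98 to 60.2 CPM (median 19.2) in sham males and 2.04 to 10.7 (median 8.51) in SMC males, and from 2.29 to 17.1 (median 9.61) in sham females and 6.6 to 27.3 (median 11.4) in SMC females. The groups of each sex overlapped, with the 4 medians highest in male sham mice. Its log2 fold change was -1.77 in males (SE 0.54; edgeR unadjusted p = 0.00302, FDR = 0.21) and 0.61 in females (SE 0.53; edgeR FDR = 0.70), and the difference of the responses was -2.38 (SE 0.75; edgeR unadjusted p = 0.00418, FDR = 0.93). Ankrd23 was at 0.23 in males and 0.30 in females, and Ankrd2 at -0.75 and -0.23, and neither passed the test. In the thin filament list of 15 genes, Tpm3, a slow fibre tropomyosin that is also in the slow fibre list, had the highest value in both sexes (0.55 and 0.54, SE 0.46 each). The lowest were Klhl40, a protein that stabilises nebulin and leiomodin, in males (-0.51, SE 0.18; edgeR FDR = 0.27) and Nebl in females (-0.87, SE 0.31; edgeR FDR = 0.22). Nebl levels were low, at 1.12 to 5.89 CPM (median 1.86) in sham females and 1.02 to 1.78 CPM (median 1.27) in SMC females, which overlapped.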

How the data were processed

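Total RNA was made into ribosome-depleted directional libraries, and the authors deposited raw counts per Ensembl gene, 1 column per mouse. The submitters' processing notes name cutadapt 1.16, STAR 2.7.9a, featureCounts 1.6, DESeq2 1.34.0, GRCm39 and mm39, with no roles. Replicate numbers come from the sample titles. Counts were filtered with filterByExpr, normalized by TMM and fitted by edgeR 4.0.16 (R 4.3.3) with 1 mean per group over all 24 libraries. Benjamini-Hochberg FDR was taken over 16408 genes with a threshold of 0.05, and SE and 95% intervals come from that fit. Alternatives were DESeq2 1.42.0, limma 3.58.1 with quality weights, other scaling factors and filters, fits within a sex and leaving out libraries. Log2 CPM used a prior count of 2, and interactions of ratios used 100000 permutations. Exon lengths and overlaps of gene spans are from GENCODE M21 (GRCm38), which gave a length for 52135 of 55416 genes. The fits were tested on simulated data. Over 60 pairs of libraries of 1 group, chi-square per degree of freedom was at least 10.7, so none was a copy. The members and lists were chosen with earlier results of these data known. All members were named. A listed gene was named if its FDR was under 0.05 in a comparison or if it had the largest rise or fall of its list in males or in females, and the 3 genes of highest correlation were named per member, except for results that are not reported here. Marker lists of other cell types had medians over libraries of 27.4 CPM (adipocyte), 287 (tendon cell), 931 (fibroblast), 289.9 (endothelial cell), 93.5 (Schwann cell), 66.2 (macrophage) and 449.5 CPM (red blood cell).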

Additional observations from a re-analysis of the deposited data

Results flagged for a closer look

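In 64 sets of 6 mice (each member and ratio in each group, and the summed share), the highest or lowest mouse stood apart from the other 5 by Dixon's test in 14, where chance gives about 1 in 20, or 3.2. Of these, 4 were in male sham replicate 4 and 3 in female sham replicate 7, the libraries low in slow fibre genes, so the 14 are not separate events. Actn2 stood at 7.88 log2 CPM in male sham replicate 4 (others 10.01 to 10.24), 8.23 in male SMC replicate 14 (others 9.65 to 10.35) and 7.40 in female sham replicate 7 (others 9.30 to 10.3). Mybpc1 was at 8.185 log2 CPM in male sham replicate 4, below 10.1 to 10.57 in the other sham males, and Actn3 was at 13.44 in female sham replicate 7, above 12.13 to 12.59 in the other sham females. The log2 ratio of Actn3 to Actn2 was 5.395 in male sham replicate 4 and 6.041 in female sham replicate 7, and that of Mybpc2 to Mybpc1 was 4.758 in male sham replicate 4.

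Titin stood apart in other mice. It was at 16.27 log2 CPM in female sham replicate 8, against 17.37 to 17.87 in the other sham females, and at 17.77 in male SMC replicate 13, against 17.44 to 17.54 in the other SMC males. In female sham replicate 8 the log2 ratio of titin to nebulin was 2.504 (others 2.95 to 2.99), that of titin to Acta1 was 2.327 (others 3.14 to 3.35) and the 9 members held 15.93% of counts (others 24.13% to 27.61%). The log2 ratio of titin to nebulin was also low in female SMC replicate 23, at 2.704 against 2.88 to 2.97 in the other SMC females.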

How the results depend on the processing

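No paired analysis was possible because the replicate numbers of the titles run from 1 to 24 and no number is shared between groups. Of 428 values recomputed under other settings, 395 stayed the same, as did 1720 of 1848 with 1 library left out. For a test this meant the same direction and side of the threshold, and for a count a value within 1.5 times. A share difference counted as the same if it moved by less than the pooled SD, and its direction was not checked. The Neb share between sham sexes thus ran from -0.1439 to 0.03937 percentage points with 1 library left out. The cause of the changes below was not tested. Of the 9 members, 0 were called in any comparison under these settings except 1, titin averaged over the sexes by limma with quality weights. Counts of all genes called were 128 in males, 268 in females, 1 for the interaction, 778 averaged and 575 between sham sexes by DESeq2. In females they were 37 with RLE factors, 36 with factors computed without the members and mitochondrial genome, 16 by limma (93 in males), 155 without male sham replicate 4 and female sham replicate 7 (511 between sham sexes) and 14 with the 12 female libraries only. With no filter 189 genes were called averaged over the sexes, and the FDR of Synpo2 was 0.0519. With 1 library left out, genes called ranged from 0 to 78 in males (78 without male sham replicate 5), 0 to 147 in females (147 without female sham replicate 9), 0 to 1 for the interaction, 236 to 501 averaged and 187 to 487 between sham sexes, and ratio tests with an adjusted p under 0.05 from 1 to 7 of 24.

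Fold changes near 0 changed sign. In males Actn3 was -0.000946 by DESeq2, -0.000942 with RLE factors, -0.000241 with factors without members and mitochondrial genome, -0.00763 with no filter and -0.00295 with male libraries only. Mybpc2 was -0.00546 with no filter and -0.00103 with male libraries only, and Myom1 was -0.0113 with the length trend removed, a setting chosen after seeing the data. In females Myom2 was 0.0679 without the pair of libraries low in slow fibre genes, where the log2 ratio differences were 0.2779 for Actn3 over Actn2, 0.2458 for Mybpc2 over Mybpc1 and 0.001256 for Ttn over Neb, and the interaction of Neb over Acta1 was 0.01139. On a linear scale the male differences were -1.944 for Actn3 over Actn2 and -1.636 for Mybpc2 over Mybpc1, with an interaction of -0.6633 for the latter. Leaving out 1 library gave male ranges of -0.26 to 0.137 for Actn2, -0.118 to 0.207 for Actn3, -0.337 to 0.0173 for Mybpc1, -0.105 to 0.172 for Mybpc2, -0.0515 to 0.17 for Myom1 and -0.00912 to 0.215 for Myom2, and -0.135 to 0.0679 for Myom2 in females. Other fold changes of SMC against sham moved by over 1.5 times with 1 library left out, without a change of sign or call, namely Acta1 in males (0.0186 to 0.119) and, in females, Acta1 (0.105 to 0.28), Actn2 (0.116 to 0.487), Actn3 (0.0286 to 0.391), Mybpc1 (0.145 to 0.432), Mybpc2 (0.0818 to 0.447) and Myom1 (0.00269 to 0.183). For Actn3 over Actn2 the ranges were -0.3378 to 0.6093 in males, -0.5849 to 0.2779 in females, -1.004 to 0.1285 between sham sexes and -0.2161 to 0.9167 for the interaction. For Mybpc2 over Mybpc1 they were -0.1783 to 0.5797, -0.3086 to 0.2458, -0.3068 to 0.5281 and -0.1668 to 0.6682 in the same order. For Ttn over Neb in females the range was -0.09644 to 0.01665, and for the interaction of Neb over Acta1 it was -0.05052 to 0.06383. Without male sham replicate 5 the ratio tests that came to pass included Neb over Acta1 in males (adjusted p = 0.0433, exact permutation test) and Ttn over Neb between sham sexes (0.0455), and without female sham replicate 8 they included Ttn over Neb (0.013) and Ttn over Acta1 (0.0303) between sham sexes and the interaction of Ttn over Acta1 (0.0491, permutation test). In other alternatives the adjusted p rose to 0.286 for Neb over Acta1 in males. It rose to 0.266 for Ttn over Neb and 0.368 for Ttn over Acta1 between sham sexes, and to 0.818 for the interaction of Ttn over Acta1. The differences in the share of all 9 members kept their direction in all settings run. Depth was not varied, so what it limits was not tested.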
